A study of Mus musculus with 36 samples.

Results

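A set of 39 genes for DNA replication and nucleotide synthesis was followed in the blood of irradiated mice. The members were chosen by name, as the genes whose array probes carry the symbol of a known replication or nucleotide synthesis factor, and all 39 were found among the 31093 genes of the array. Of these, 26 passed the filters on signal and variation, as did 10586 genes in all, and only these were tested. Male C57BL/6J mice, 8 to 10 weeks old, were sham-irradiated (Control) or irradiated, and blood was drawn by cardiac puncture on day 7, with 6 mice and 1 array per mouse in each of 6 groups. The exposed groups received 3 Gy of x-rays, mixed field x-ray/neutron radiation of 3 Gy in total with 5, 15, or 25% from neutrons, or 0.75 Gy of neutrons. The neutron source also gave some photons, so that the methods put the neutron share of the neutron group at 83% where its labels give 100%, and this group differed from the others in total dose as well. RNA came from whole blood stabilized on collection and reduced in globin transcripts, so that all blood cell types contributed, and fewer cells of a type and less RNA per cell cannot be told apart. Doses of x-rays and neutrons were combined to see how blood transcripts differ when part of a dose comes from neutrons.

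Before a cell copies its DNA, the origin recognition complex with Cdc6 and Cdt1 loads the MCM helicase onto chromatin, a step called licensing that geminin blocks by binding Cdt1. Cdc45 and the GINS complex then switch the helicase on, DNA polymerases primed by primase copy both strands, the sliding clamp Pcna holds them in place, and Fen1 and Lig1 join the fragments of the lagging strand. Ribonucleotide reductase and thymidine kinase supply deoxynucleotides, while Uhrf1 and the chromatin assembly factor rebuild methylation and nucleosomes behind the fork. Most of these genes are transcribed under the control of E2F factors as cells enter S phase. Mature blood cells rarely divide, so that cycling cells in blood are mainly immature or activated cells, and many of the dividing cells of the blood system stay in the marrow, which radiation damages.

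All levels are log2 intensities relative to the median of the array, and fold changes are differences between group means on this scale, with the standard error (SE). A gene was taken as differentially expressed where limma, fitted to the 12 arrays of a comparison, gave p below 0.001 together with an adjusted p (Benjamini-Hochberg, over all 10586 genes) below 0.05. The p-values measure the spread between mice. The number of probes well above background fell in medians from 19920 on the control arrays to 16564 on the neutron arrays, within a range of 15569 to 21294 over all arrays. Arrays were scanned in 4 sessions, and the 25% and neutron arrays filled a session of their own, so that their difference from controls or x-rays and that session cannot be told apart.

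The 26 tested members did not respond as a block. Compared with controls, 7 were upregulated and 8 downregulated in at least 1 exposure, 11 passed the test in none, and none was called in opposite directions. These counts were not made over all genes, so they do not show whether the members differ from other genes. After x-rays, 4 members were differentially expressed (2 up, 2 down), against 36.3% of all genes (16.4% up, 19.9% down). The 5% mixed field gave 7 members (5 up, 2 down) against 27.8% (12% and 15.8%). The 15% mixed field gave 10 (5 up, 5 down) against 35% (16.5% and 18.4%), and the 25% mixed field 9 (6 up, 3 down) against 30.3% (14.5% and 15.8%). Neutrons gave 11 members (3 up, 8 down) against 43.6% of all genes (19.5% and 24.1%). The shares of members called were thus 15.4%, 26.9%, 38.5%, 34.6%, and 42.3%, of which the share after x-rays lay furthest from its background and the others were within a few members of theirs. The median log2 fold change of the members was -0.28, -0.07, -0.01, 0.03, and -0.38 in that order, and that of all genes -0.24, -0.09, -0.05, -0.10, and -0.15. The 5 comparisons share their control arrays and are not independent of each other.

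**Figure D1:**
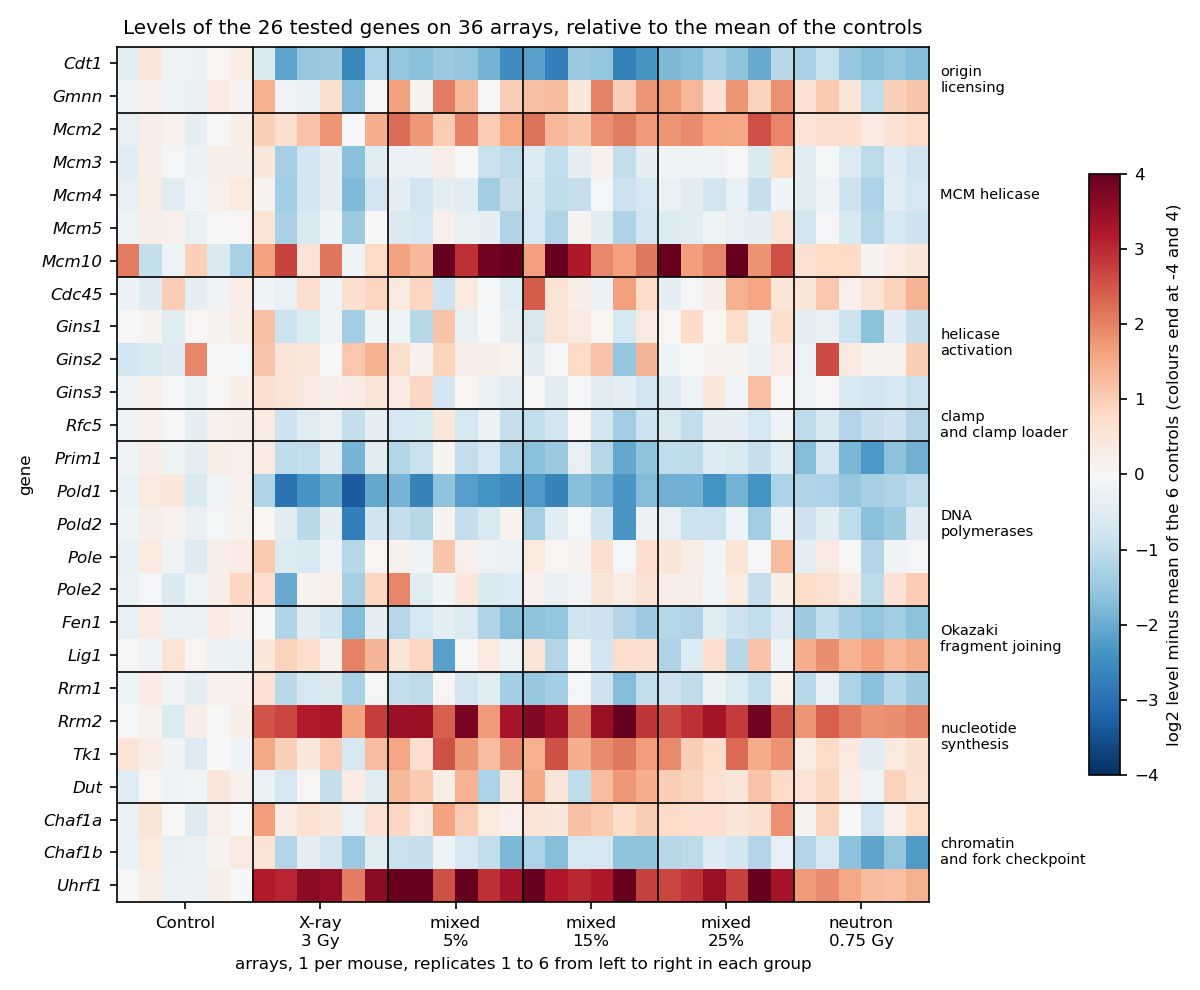
Log2 level of the 26 tested genes (rows, ordered by role) on 36 arrays (columns, 6 mice per group), minus the mean of the 6 controls; red is higher and blue lower, and colours end at -4 and 4. Rrm2 and Uhrf1 were higher, and Cdt1 and Pold1 lower, on the arrays of every exposed group, while most other genes varied within the groups.

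**Figure D2:**
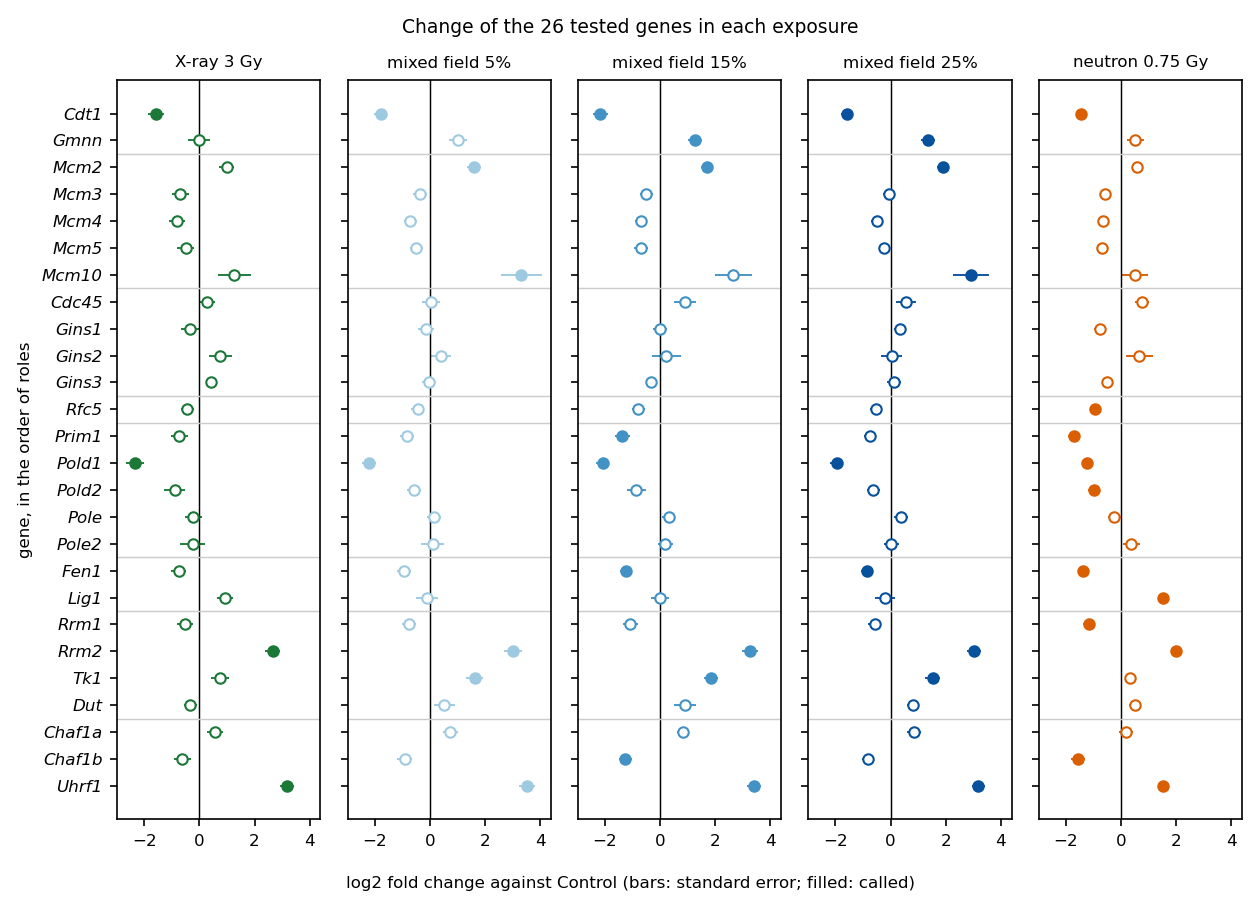
Log2 fold change against Control of the 26 tested genes in the 5 exposures, with bars for the standard error and filled points for genes that passed the test. The filled points number 4 after x-rays, 7, 10, and 9 after the 5, 15, and 25% mixed fields, and 11 after neutrons.

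These counts depended on how the intensities were treated. With normexp background correction in place of the image software's own correction, 14 of the 41 calls against controls remained, and the counts fell to 1, 1, 4, 3, and 5, while the share over all genes fell to 4.5, 3.65, 8.08, 4.6, and 4.35%. Scaling to the 75th percentile gave 4 up and 2 down after x-rays, 7 and 2 after the 25% mixed field, and 5 and 7 after neutrons, with 39 of the 41 calls kept and none turned. Quantile normalization gave 5 up and 4 down after the 5% mixed field, and scaling on probes above background on all arrays gave 4 and 2 after x-rays and 5 and 8 after neutrons, each with all 41 calls kept. With the adjusted p as the only threshold the counts were 11, 14, 17, 16, and 19, against 66, 50.5, 57.3, 53.5, and 65.6% of all genes. With the slide as a block 21 of the 41 calls remained, of which 8 were at 25% and 10 after neutrons. Those groups shared no slide with controls, so there the slide entered only as a correlation between arrays and slide effects were not removed. The 5 and 15% groups shared a slide with controls through 1 array each, which is too few to judge their calls. In the expression table that the authors deposited, the split was 4 up and 5 down at 5%, 4 and 8 at 15%, and 2 and 14 after neutrons. The median of all genes moved by more than 0.1 between median and 75th percentile scaling, from -0.24 to 0.11 after x-rays and from -0.15 to 0.12 after neutrons.

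Rrm2, Uhrf1, Cdt1, and Pold1 were the 4 members called in all 5 exposures, and they went in different directions. Rrm2, the small subunit of ribonucleotide reductase, which makes deoxynucleotides, and Uhrf1, which brings the maintenance DNA methyltransferase to newly copied DNA, were upregulated. Cdt1, a licensing factor that helps load the MCM helicase, and Pold1, the catalytic subunit of DNA polymerase delta, were downregulated. Among all genes tested, 5.75% were upregulated in all 5 exposures and 8.34% were downregulated in all 5, against 2 and 2 of the 26 members.

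Rrm2 ran from 3.76 to 4.59 in the controls, with a median of 4.37. It ran from 5.91 to 7.56 (median 7.03) after x-rays, and from 6.01 to 8.11 (7.68), 6.43 to 8.31 (7.73), and 6.81 to 8.18 (7.18) after the 5, 15, and 25% mixed fields. After neutrons it ran from 6.09 to 6.70, with a median of 6.25. No exposed mouse overlapped the controls, and the neutron group was the narrowest of the exposed groups. The log2 fold changes were 2.65 ± 0.27 (SE) after x-rays (6.30-fold), 3.01 ± 0.33, 3.25 ± 0.29, and 3.02 ± 0.25 with the mixed fields, and 1.98 ± 0.16 after neutrons (3.96-fold), with limma adjusted p from 1.75e-07 to 8.21e-06. The array design places this probe on chromosome 19 while Rrm2 lies on chromosome 12, so that a near-identical copy may share its signal and the gene's identity is uncertain.

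Uhrf1, whose probe is placed at chr17:56462770-56462829 (mm9), ran from 2.56 to 3.09 in the controls (median 2.79). After x-rays it ran from 4.85 to 6.41 (median 6.16), in the mixed fields from 5.36 to 7.07 (6.46), 5.52 to 7.02 (6.02), and 5.48 to 6.86 (5.90), and after neutrons from 4.00 to 4.71 (4.29). Again every exposed mouse was above every control, and every mouse of the neutron group was below every mouse of the other 4 exposures. On the log2 scale it changed by 3.17 ± 0.26 after x-rays (8.98-fold), 3.52 ± 0.29, 3.40 ± 0.26, and 3.18 ± 0.24 with the mixed fields (11.4-, 10.5-, and 9.08-fold), and 1.51 ± 0.16 after neutrons (2.85-fold), with limma adjusted p from 2.36e-07 to 1.43e-06. With normexp background correction, the neutron values of Rrm2 and Uhrf1 were 0.29 and 0.10 and did not pass the test, and those after x-rays were 1.51 and 1.76 with p above 0.001. The 5% calls of both genes were lost too, at 0.84 and 1.18, and so was the 25% call of Rrm2 (2.04). Both genes kept the call at 15%, and Uhrf1 kept that at 25%.

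Cdt1, whose probe the array design places at chr8:125096893-125096952 (mm9), ran from 5.70 to 6.56 in the controls (median 6.04). It lay between 3.53 and 5.52 after x-rays (median 4.64), between 3.63 and 4.63 (4.47), 3.38 and 4.61 (3.84), and 4.09 and 4.99 (4.46) after the mixed fields, and between 4.37 and 5.22 after neutrons (4.55). The groups did not overlap the controls. The log2 fold changes were -1.58 ± 0.30, -1.77 ± 0.24, -2.17 ± 0.27, -1.59 ± 0.22, and -1.45 ± 0.19 in the order of x-rays, 5, 15, and 25% mixed field, and neutrons, or 2.99-, 3.42-, 4.5-, 3.02-, and 2.73-fold lower (limma adjusted p from 1.23e-05 to 0.000533). With normexp the calls after x-rays and at 5 and 15% were lost, at -2.05, -2.66, and -2.05. Those at 25% and after neutrons were kept, at -2.01 and -2.45.

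Pold1 ran from 5.33 to 6.34 in the controls (median 5.93) and from 4.39 to 4.86 after neutrons (4.68). After x-rays it ran from 2.56 to 4.71 (3.70), and after the 5, 15, and 25% mixed fields from 3.24 to 4.30 (3.60), 3.24 to 4.21 (3.84), and 3.52 to 4.66 (3.98). No exposed group overlapped the controls. The decrease was -2.32 ± 0.32 after x-rays (5.00-fold), -2.21 ± 0.25, -2.09 ± 0.24, and -1.96 ± 0.24 with the mixed fields, and -1.25 ± 0.17 after neutrons (2.38-fold), with limma adjusted p from 1.03e-05 to 5.32e-05. With normexp Pold1 kept its call in every exposure. The array design gives the probe of Pold1 no position.

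The scan sessions bear on these 4 genes and on the other calls. Session 1 held 5 control and 5 x-ray arrays, and within it the x-ray values minus controls were 2.53 for Rrm2, 3.03 for Uhrf1, -1.68 for Cdt1, and -2.29 for Pold1. The 5% and 15% groups shared a session with controls through 1 array each. There 5% minus control was 2.25, 3.18, -1.67, and -2.84 for the genes in the same order. The 15% values were 2.67, 3.25, -1.28, and -2.13. Other members called at 15% gave 0.58 for Gmnn, 0.94 for Mcm2, 1.59 for Tk1, -0.15 for Prim1, -0.54 for Fen1, and -0.40 for Chaf1b. Each of these lay nearer to the controls than the difference of the full groups. At 5% the others gave 0.86 for Mcm2, 4.06 for Mcm10, and 1.39 for Tk1. With the session as a block, x-rays kept all 4 calls, the 5% mixed field kept 0 of 7, and the 15% mixed field kept 2 of 10, which were Rrm2 and Uhrf1.

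**Figure D3:**
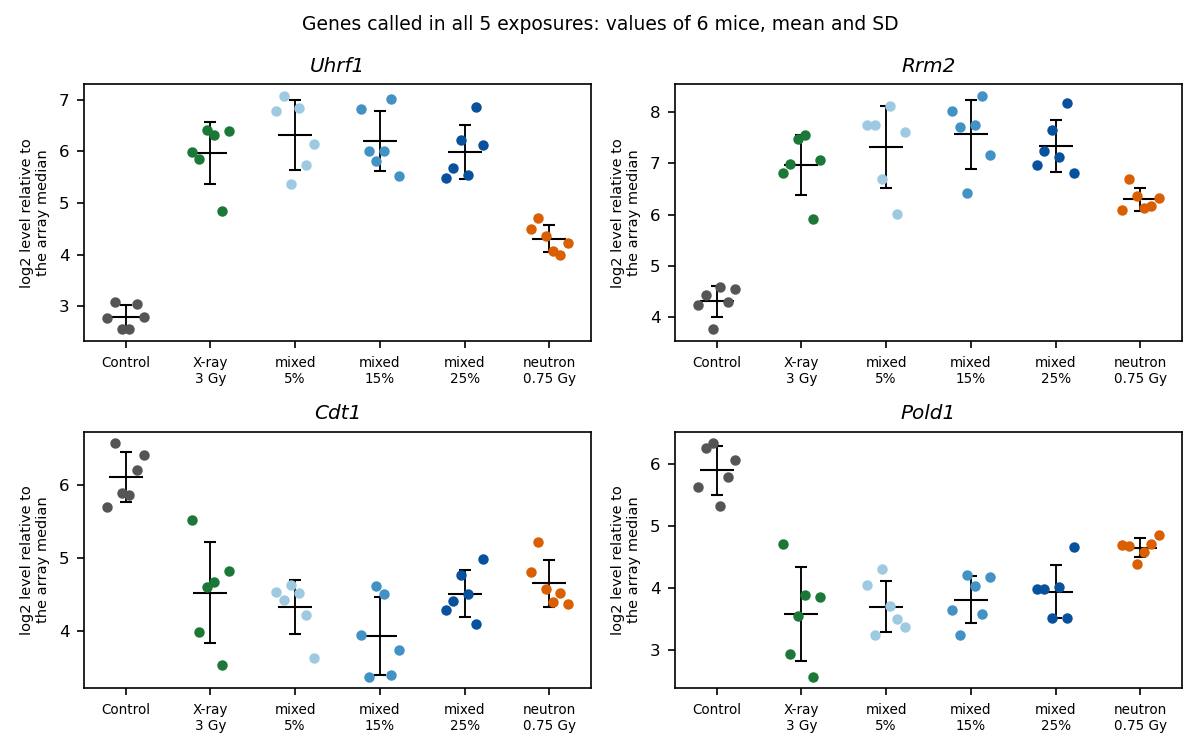
Log2 level relative to the array median of Uhrf1, Rrm2, Cdt1, and Pold1 in 6 groups of 6 mice, with a point per mouse and a bar for the mean and its SD. The exposed groups lie wholly above the controls for Uhrf1 and Rrm2 and wholly below them for Cdt1 and Pold1, and the neutron mice lie between the controls and the other exposures for Uhrf1.

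The promoters of the 4 members called in every exposure are shown with the motifs found in them, together with that of Mcm6, a helicase gene that varied too little to be tested. Each stretch holds the 250 bases before the RefSeq start of the gene (build GRCm38.p6), on the strand of the gene, and capitals mark an E2F word or a CCAAT box on either strand, a CCAAT box on the other strand reading ATTGG. The stretches are Rrm2 at chr12:24708004-24708253 (+), Uhrf1 at chr17:56303087-56303336 (+), Cdt1 at chr8:122567765-122568014 (+), Pold1 at chr7:44548816-44549065 (-), and Mcm6 at chr1:128359706-128359955 (-).
Rrm2: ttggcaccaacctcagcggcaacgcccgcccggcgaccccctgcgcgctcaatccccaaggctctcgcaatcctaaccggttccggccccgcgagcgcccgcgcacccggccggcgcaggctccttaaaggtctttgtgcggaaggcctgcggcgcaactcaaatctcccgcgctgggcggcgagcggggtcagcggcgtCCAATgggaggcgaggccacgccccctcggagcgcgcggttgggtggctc
Uhrf1: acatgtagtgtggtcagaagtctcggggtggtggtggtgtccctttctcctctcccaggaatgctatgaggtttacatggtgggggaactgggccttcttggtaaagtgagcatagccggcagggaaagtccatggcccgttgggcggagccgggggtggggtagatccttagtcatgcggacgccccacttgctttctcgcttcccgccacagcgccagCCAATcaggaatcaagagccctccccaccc
Cdt1: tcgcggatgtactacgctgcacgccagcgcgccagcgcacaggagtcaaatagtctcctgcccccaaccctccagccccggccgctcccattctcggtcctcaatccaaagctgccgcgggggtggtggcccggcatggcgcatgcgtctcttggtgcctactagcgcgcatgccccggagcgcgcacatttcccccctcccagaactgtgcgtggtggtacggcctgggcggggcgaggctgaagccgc
Pold1: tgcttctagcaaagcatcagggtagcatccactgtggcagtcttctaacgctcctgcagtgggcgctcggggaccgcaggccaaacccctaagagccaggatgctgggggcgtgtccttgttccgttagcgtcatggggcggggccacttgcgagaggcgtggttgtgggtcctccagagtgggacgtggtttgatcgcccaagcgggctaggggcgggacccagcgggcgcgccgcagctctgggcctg
Mcm6: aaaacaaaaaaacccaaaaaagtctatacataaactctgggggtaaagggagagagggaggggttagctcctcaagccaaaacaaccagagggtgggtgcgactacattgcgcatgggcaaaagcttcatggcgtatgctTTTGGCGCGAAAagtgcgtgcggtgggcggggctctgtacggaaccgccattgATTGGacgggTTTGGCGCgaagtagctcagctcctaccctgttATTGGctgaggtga

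The E2F words searched were TTTCCCGC, TTTCGCGC, TTTGCCGC, and TTTGGCGC, on both strands, and they can overlap each other, as in the run that Mcm6 carries. In windows of 300 bases (250 before and 50 after the start), available for 33 of the 39 members, 15 members held an E2F word, and these made up 38.5% of the members' windows against 2.26% of the 32851 windows of all genes. CCAAT was found in 20 of the 33, or 56.4% of their windows against 37.4% of all. An E2F word was present in 2 of the 6 upregulated members with a window, in 2 of the 8 downregulated, and in 4 of the 7 that were tested and called in no exposure. CCAAT was present in 4 of the 6 upregulated and 3 of the 8 downregulated members. Upstream of the start, the printed stretches of Rrm2 and Uhrf1 held CCAAT and those of Cdt1 and Pold1 neither motif, while both of the latter had an E2F word within the 50 bases after the start. A second start of Uhrf1, farther into the gene, had an E2F word and CCAAT upstream.

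Of the 5 licensing genes, Cdt1 and Gmnn were tested. Gmnn, which codes for geminin, the inhibitor of Cdt1, was upregulated after the 15 and 25% mixed fields. Its level was 0.29 to 0.95 in the controls (median 0.58), 1.01 to 2.57 after 15% (1.82), and 1.17 to 2.44 after 25% (2.12), so that both groups stood above the controls. The log2 fold changes were 1.26 ± 0.26 and 1.36 ± 0.24 (limma adjusted p = 0.000802 and 0.000313), which fell to 0.40 and 0.29 and did not pass with normexp. The 15% call was also lost in the deposited table (1.04). After x-rays the mice spread from -1.14 to 2.03 around a median of 0.53, with a log2 fold change of -0.01 ± 0.40, and only 2 of the 6 arrays were well above background there. The 5% and neutron values, 1.02 ± 0.33 and 0.52 ± 0.30, did not pass. A second probe of Gmnn was not well above background on any array. Orc6, a subunit of the origin recognition complex, varied too little to be tested, and its group means lay 0.42 to 0.91 below the controls on the log2 scale. Orc1, the largest subunit of that complex, was well above background on 0 arrays and Cdc6, which recruits the helicase with Cdt1, on 5 of 36.

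Within the MCM group, the subunits of one complex did not move together. Mcm2, a subunit of the hexameric helicase, was upregulated in the 3 mixed fields, and Mcm10, a separate factor that joins the active helicase, in the 5 and 25% mixed fields. Mcm3, Mcm4, and Mcm5, also subunits of the hexamer, passed the test in no exposure. Mcm6 and Mcm7 varied too little to be tested, their group means lying between -0.44 and 0.44 of the controls, and the array design places the probe of Mcm7 on chromosome 16 while the gene lies on chromosome 5, so that its identity is uncertain.

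The controls had Mcm2 levels of 2.55 to 3.17 (median 3.00). The mixed field groups ran from 3.92 to 5.14 (4.56), 4.01 to 5.07 (4.68), and 4.46 to 5.49 (4.74) at 5, 15, and 25%, all above the controls. Fold changes on the log2 scale were 1.59 ± 0.25, 1.70 ± 0.23, and 1.89 ± 0.22 (limma adjusted p = 0.000179, 3.43e-05, and 8.27e-06). X-ray mice spread from 2.88 to 4.67 (3.95) and overlapped the controls, and their 0.99 ± 0.27 did not pass. Neutron mice ran from 3.23 to 3.68 (3.52), just above the controls and below every mixed field mouse, and their 0.59 ± 0.15 did not pass (limma adjusted p = 0.00252 with p above 0.001). With normexp, Mcm2 kept its call at 15% (1.04) and lost it at 5% (0.12) and 25% (0.80).

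Mcm10 varied widely between mice. Its controls ran from -0.03 to 3.36 (median 0.89), its x-ray mice from 1.14 to 3.98 (2.48), and its mixed field mice from 2.59 to 7.19 (4.67), 2.92 to 6.70 (3.30), and 2.96 to 6.02 (3.56). Neutron mice were tightly placed, from 1.38 to 2.08 (1.83). All groups overlapped the controls. The log2 fold change was 3.32 ± 0.74 at 5% and 2.91 ± 0.65 at 25% (9.96- and 7.49-fold, limma adjusted p = 0.00186 and 0.00179), and 2.66 ± 0.68 at 15%, 1.27 ± 0.59 after x-rays, and 0.51 ± 0.46 after neutrons, which did not pass. The 5% call ended on leaving out any of 6 of the 12 arrays, and the 25% call any of 5, and with normexp both were lost, at 0.85 and 1.05.

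Mcm4 had the lowest mean fold change of this group, at -0.81 ± 0.30, -0.71 ± 0.24, -0.70 ± 0.23, -0.48 ± 0.21, and -0.64 ± 0.20 in the order of exposures, none of which passed. Its controls ran from 5.21 to 6.09 (median 5.76) and its x-ray mice from 3.93 to 5.85 (4.95), overlapping them. Both probes of Mcm3 were well above background on all 36 arrays, and they differed in sign at 25% with -0.07 and 0.26.

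No gene of helicase activation was called against controls in any exposure. Cdc45, a cofactor of the helicase, had log2 fold changes from 0.04 ± 0.32 at 5% to 0.90 ± 0.41 at 15%, and 0.76 ± 0.26 after neutrons. Gins1, a subunit of the GINS complex, ranged from -0.75 ± 0.22 after neutrons to 0.35 ± 0.22 at 25%. Gins2 and Gins3, from the same complex, ranged from 0.03 to 0.76 and from -0.53 to 0.44. Gins4 varied too little to be tested, with group means from -0.42 to 0.04 of the controls.

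Of the clamp and its loader, only Rfc5, a subunit of the clamp loader, was tested, and it was downregulated after neutrons. Its level was 3.99 to 4.57 in the controls (median 4.39) and 3.17 to 3.70 after neutrons (3.35), with no overlap, a log2 fold change of -0.96 ± 0.14 and a limma adjusted p of 4.56e-05. In the other exposures it was -0.44 ± 0.22, -0.44 ± 0.24, -0.79 ± 0.23, and -0.54 ± 0.19, which did not pass. The neutron call of Rfc5 was lost with normexp, at -1.51. Pcna, the sliding clamp, varied too little, with group means 0.20 to 0.58 below the controls, and its probe is placed on chromosome 19 while the gene lies on chromosome 2. The probes of Rfc4 disagreed in direction at 15 and 25%, where they gave 0.23 and 0.09 for the brighter and -0.74 and -0.34 for the other, and neither passed the filters. Rfc3, of the same loader, was well above background on 15 of 36 arrays.

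The polymerase genes called were all downregulated. Besides Pold1, these were Prim1, the catalytic subunit of primase, and Pold2, an accessory subunit of DNA polymerase delta. Prim1 lay between 3.35 and 4.01 in the controls (median 3.75). It ran from 1.69 to 3.39 at 15% (2.20) and from 1.42 to 2.98 after neutrons (1.95). The 15% group overlapped the controls in its highest mouse and the neutron group did not. The log2 fold changes were -1.38 ± 0.27 and -1.70 ± 0.22 (limma adjusted p = 0.000577 and 1.45e-05), and -0.73 to -0.81 in the other 3 exposures, which did not pass. Pold2 fell by 0.98 on the log2 scale after neutrons (SE 0.20, limma adjusted p = 0.000743), from 2.05 to 2.59 in the controls (2.39) to 0.69 to 1.89 (1.43), with no overlap. It was -0.56 to -0.89 in the other exposures. With normexp Prim1 kept its call after neutrons (-1.42) and lost it at 15% (-0.92), and Pold2 lost its neutron call (-0.68).

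Pole and Pole2, the catalytic and a second subunit of DNA polymerase epsilon, passed in no exposure. Pole2 had the highest mean fold change of the polymerase genes, from -0.24 ± 0.46 after x-rays to 0.37 ± 0.32 after neutrons, and Pole ranged from -0.24 to 0.39. Pola1, the catalytic subunit of DNA polymerase alpha, was well above background on 26 of 36 arrays and Pola2, its second subunit, on 3, and neither was tested.

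The genes that join Okazaki fragments went apart after neutrons. Fen1, which trims the flap at the end of each fragment, ran from 5.34 to 6.00 in the controls (median 5.62) and from 4.01 to 4.68 after neutrons (4.25), and Lig1, which seals the nick, from 10.33 to 11.14 (10.54) and from 11.94 to 12.46 (12.08). In neither gene did the neutron mice overlap the controls. The log2 fold change was -1.40 ± 0.17 for Fen1 and 1.53 ± 0.16 for Lig1 (2.63-fold lower and 2.89-fold higher, limma adjusted p = 5.54e-06 and 1.35e-06). Lig1 did not keep its call in the deposited expression table (0.83, limma adjusted p = 0.00558), and with normexp background correction it turned to -0.20.

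Fen1 was also downregulated in the 15 and 25% mixed fields, at -1.24 ± 0.23 and -0.86 ± 0.21 (limma adjusted p = 0.000335 and 0.00287). These mice ran from 4.05 to 4.86 (4.33) and from 4.47 to 5.16 (4.75), below all controls. The 25% call ended on leaving out any of 9 of the 12 arrays, and was lost in the deposited table (-0.96). With normexp Fen1 kept its call after neutrons (-2.29) and lost those at 15% (-1.26) and 25% (-1.35). Lig1 did not pass in the mixed fields, where its levels spread from 8.43 to 11.46, 9.42 to 11.32, and 9.37 to 11.75 at 5, 15, and 25% and its log2 fold change was -0.10 at 5% and -0.20 at 25%. After x-rays Lig1 was 0.92 ± 0.28, which did not pass.

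Of the nucleotide synthesis genes, the probe named for Rrm2, whose identity is uncertain as stated, was higher in every exposure. Rrm1, the large subunit of ribonucleotide reductase, was downregulated after neutrons, at -1.16 ± 0.21 (limma adjusted p = 0.000211). Rrm1 ran from 3.46 to 4.2 in the controls (median 3.88) and from 2.17 to 3.53 after neutrons (2.65), with a slight overlap. In the other exposures its log2 fold change was -0.51 ± 0.29, -0.75 ± 0.25, -1.08 ± 0.27, and -0.58 ± 0.23, none of which passed. The neutron call of Rrm1 was lost with normexp, at -1.265.

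Tk1, the cytosolic thymidine kinase that salvages thymidine in S phase, was upregulated in the 3 mixed fields. It ran from 2.29 to 3.36 in the controls (median 2.77) and from 3.52 to 5.39 (4.51), 4.27 to 5.37 (4.62), and 3.55 to 5.11 (4.47) at 5, 15, and 25%, with no overlap. The log2 fold changes were 1.62 ± 0.30, 1.85 ± 0.25, and 1.52 ± 0.28 (3.08-, 3.61-, and 2.87-fold, limma adjusted p = 0.000481, 3.12e-05, and 0.000356). X-ray mice ran from 2.15 to 4.39 (3.82) and neutron mice from 2.42 to 3.60 (3.23), both overlapping the controls, and their 0.75 ± 0.33 and 0.34 ± 0.21 did not pass. With normexp the 3 calls of Tk1 were lost, at 0.14, 1.19, and 0.53 for 5, 15, and 25%. Dut, the dUTPase that keeps uracil out of DNA, was called in no exposure against controls, from -0.33 ± 0.24 after x-rays to 0.90 ± 0.40 at 15%. A second probe of Dut, well above background on 2 arrays, was lower than controls in every exposure. Tyms, thymidylate synthase, was well above background on 17 of 36 arrays and was not tested.

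Besides Uhrf1, the chromatin genes held the subunits of chromatin assembly factor 1. Chaf1b was downregulated at 15% and after neutrons, from 3.44 to 4.15 in the controls (median 3.67) to 2.04 to 3.08 (2.32) and 1.5 to 3.09 (2.15), with no overlap. The log2 fold changes were -1.26 ± 0.25 and -1.57 ± 0.25 (limma adjusted p = 0.000595 and 8.67e-05), and -0.62 to -0.92 elsewhere. With normexp the 15% call was lost, at -0.85, and the neutron call was kept, at -1.34. A brighter probe of Chaf1b that did not pass the fold filter gave -0.45 and -0.28 for these comparisons, and with it in place neither call remained. Chaf1a, the large subunit, had values from 0.19 ± 0.25 after neutrons to 0.84 ± 0.25 at 25%, none of which passed. Clspn, which relays the fork checkpoint signal, was well above background on 2 arrays.

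Exposures were also compared with each other. The 25% and neutron groups shared no scan session with x-rays, and the neutron group also differed in total dose. The 5 and 15% groups shared a session with x-rays through 1 array each. A mark of neutrons beyond that of x-rays therefore cannot be told apart from these differences. Against x-rays, 0 members were called for the 5% mixed field by limma, against 0% of all genes (4 members and 2583 genes had p below 0.05), and 0 for the 15% mixed field, against 5.28% (7 members and 3401 genes had p below 0.05). The 25% mixed field gave 1 member, against 2.82%, and neutrons gave 2 (0 up, 2 down), against 17.2% (8.81% up, 8.34% down). These 4 comparisons share the x-ray arrays.

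Dut was the member called between the 25% mixed field and x-rays. It ran from 3.59 to 4.85 after x-rays (median 4.16) and from 5.00 to 5.68 at 25% (5.36), with no overlap, and the difference was 1.15 ± 0.25 (limma adjusted p = 0.0291). It ended on leaving out any of 8 of the 12 arrays, and under each of the other 3 scalings, where the limma adjusted p ran from 0.054 to 0.067. It was also lost in the deposited table and in a model over all 36 arrays.

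Gins3 and Uhrf1 were lower after neutrons than after x-rays. Gins3 ran from 8.05 to 8.46 after x-rays (median 8.26) and from 6.92 to 7.81 after neutrons (7.18), while the controls, from 7.56 to 8.07, overlapped both groups. The differences were -0.96 ± 0.19 for Gins3 and -1.66 ± 0.26 for Uhrf1 (1.95- and 3.15-fold, limma adjusted p = 0.0015 and 0.00034), with no overlap for either gene. Quantile normalization and scaling on probes above background on all arrays each gave 1 up and 2 down.

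By its labels the neutron group received the neutron dose of the 25% mixed field without the x-rays, and their arrays were scanned in 1 session. Here 7 members differed (1 up, 6 down), against 13.5% of all genes (4.93% up, 8.54% down), and the members' median difference was -0.56 against 0.02 for all genes. Lower after neutrons were the helicase genes Mcm2 and Mcm10, Gins1, the nucleotide genes Rrm2 and Tk1, and Uhrf1, while Lig1 was higher. Under 75th percentile scaling the split was 2 up and 4 down, and under quantile normalization 2 and 5. The count was 0 with normexp, 2 with the slide as a block, and 4 in the model over all 36 arrays or with the replicate number as a block.

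Mcm2 differed by -1.29 ± 0.20 (2.45-fold, limma adjusted p = 0.000281), and Uhrf1 by -1.67 ± 0.24 (3.19-fold, limma adjusted p = 0.000196). Mcm10 differed by -2.39 ± 0.51 (5.26-fold, limma adjusted p = 0.0029), and in these 3 genes all neutron mice were below all 25% mice. Lig1 differed by 1.73 ± 0.36 (3.32-fold, limma adjusted p = 0.00236) with all neutron mice above. Gins1 ran from 1.91 to 2.79 at 25% (median 2.40) and from 0.40 to 1.75 after neutrons (1.41), a difference of -1.10 ± 0.26 (limma adjusted p = 0.00566) with no overlap. Rrm2 differed by -1.03 ± 0.23 and Tk1 by -1.18 ± 0.28 (limma adjusted p = 0.00445 and 0.0058), and the Tk1 groups overlapped.

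The last 3 differences were the least stable, as the calls of Gins1, Rrm2, and Tk1 ended on leaving out any of 6, 7, and 9 of the 12 arrays. Slide 8 held 2 arrays of each group, and within it neutron minus 25% was -1.65 for Mcm2, -1.49 for Mcm10, -0.59 for Gins1, 1.15 for Lig1, -1.10 for Rrm2, -1.11 for Tk1, and -1.89 for Uhrf1. With the slide as a block, the calls of Mcm2 and Uhrf1 remained. The differences in that fit are those of slide 8, the only slide with both groups, so it is not a further check.

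**Figure D4:**
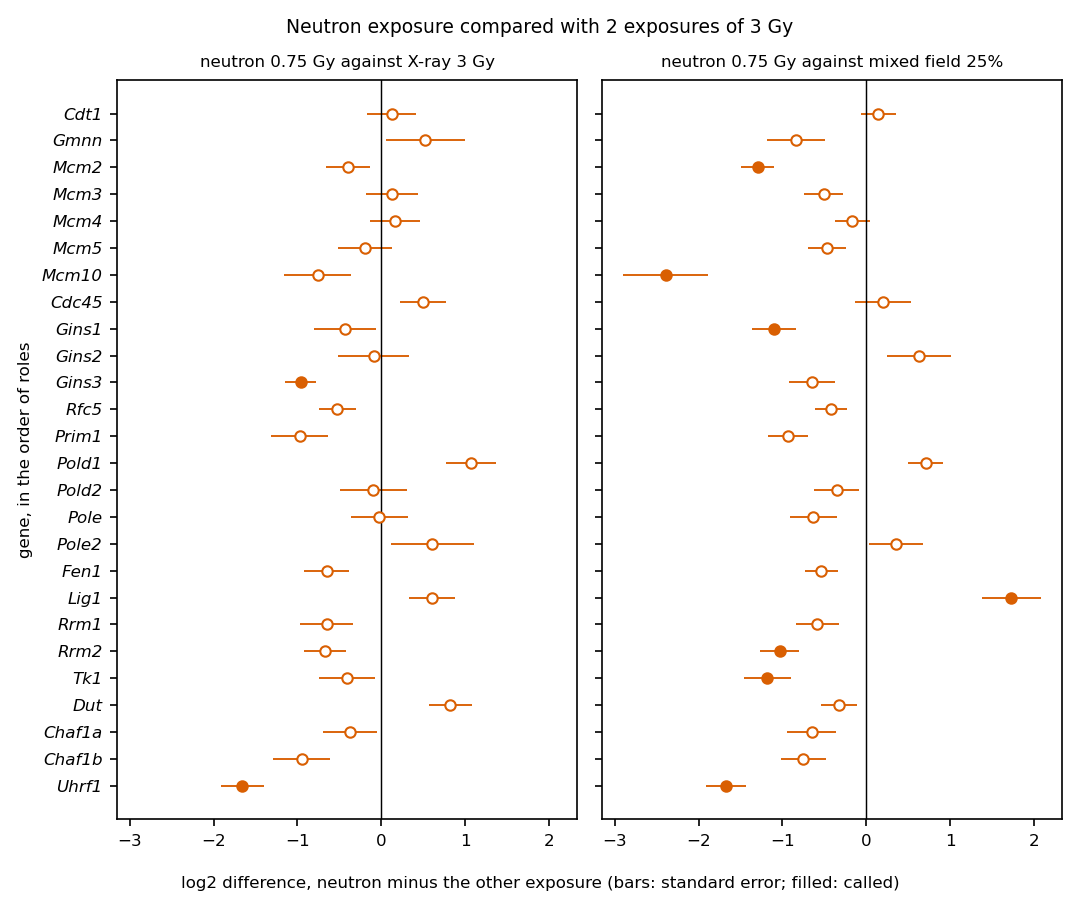
Log2 difference between neutron exposure and 3 Gy x-rays (left) or the 25% mixed field (right) for the 26 tested genes, with bars for the standard error and filled points for genes that passed the test. On the left, Gins3 and Uhrf1 are filled, and on the right 6 genes lie filled below 0 and Lig1 above it.

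**Figure D5:**
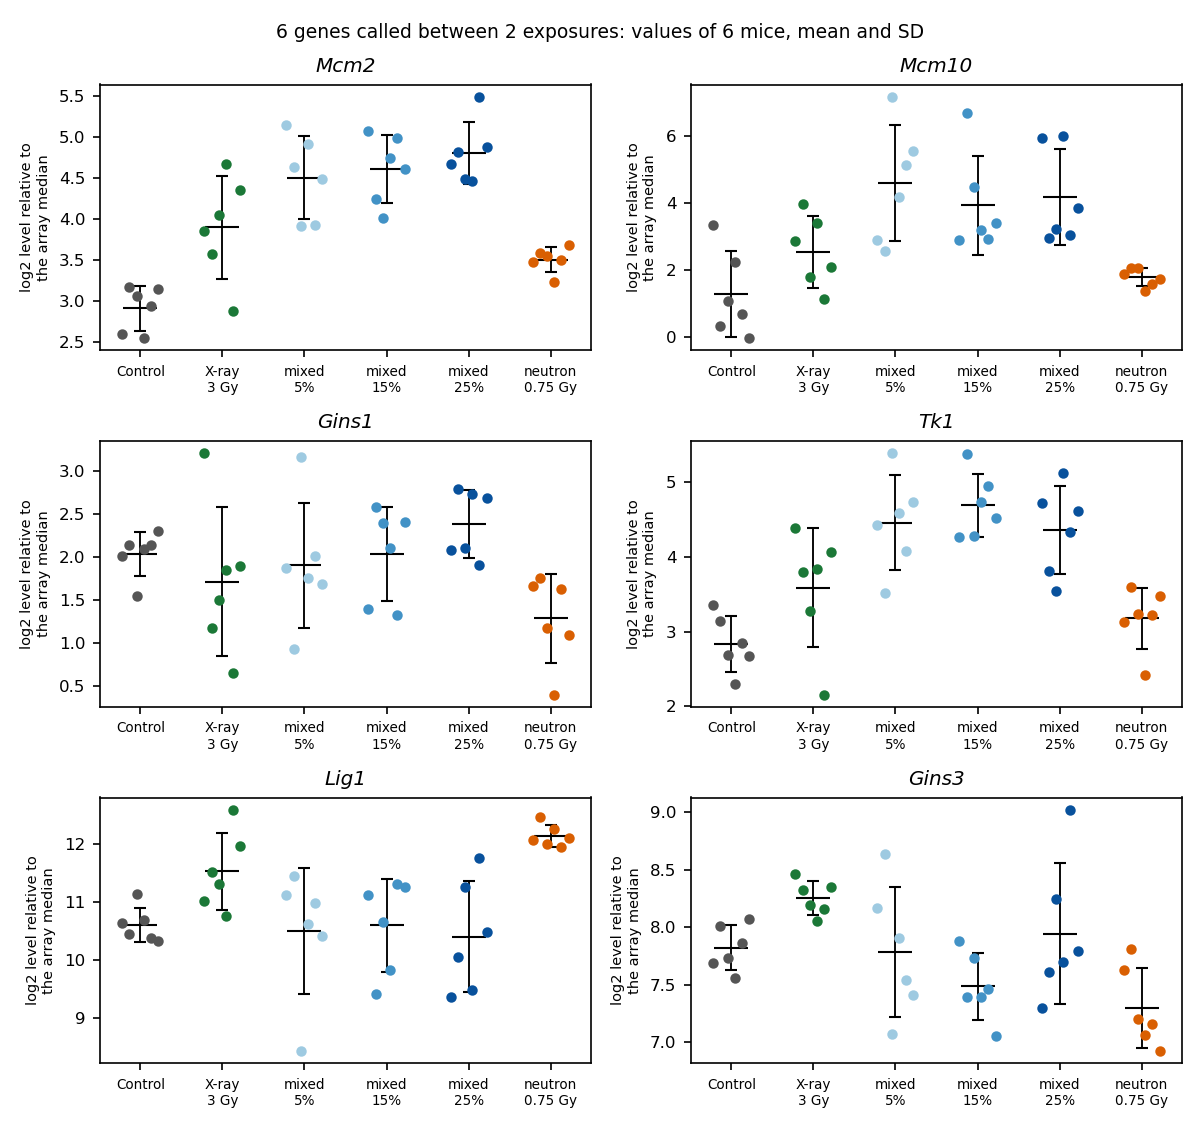
Log2 level relative to the array median of Mcm2, Mcm10, Gins1, Tk1, Lig1, and Gins3 in 6 groups of 6 mice, with a point per mouse and a bar for the mean and its SD. For Mcm2, Mcm10, and Gins1 the neutron mice lie below all mice of the 25% mixed field, and for Lig1 above them, while Gins3 is lower after neutrons than after x-rays.

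Genes around the members were counted from lists of the same pathways. Over all genes tested, 16.4, 12, 16.5, 14.5, and 19.5% were upregulated and 19.9, 15.8, 18.4, 15.8, and 24.1% downregulated in the order of exposures. Among genes of E2F and S phase control, 17 of 24 were tested, with 5, 6, 7, 7, and 7 upregulated and 1, 1, 2, 0, and 0 downregulated in the order of exposures. E2f2, an E2F factor known for its part in red cell development, was upregulated in all 5, from 2.17 ± 0.27 at 25% to 2.75 ± 0.27 at 15%. Cdkn1a, the p53 target that arrests the cell cycle, was upregulated in all 5 as well, at 2.25 ± 0.40 after x-rays, 2.75 ± 0.31, 2.82 ± 0.31, and 3.12 ± 0.22 with the mixed fields, and 1.19 ± 0.24 after neutrons. E2f1, an activator of S phase genes, was upregulated in the mixed fields, at 1.18 ± 0.21, 1.01 ± 0.23, and 1.12 ± 0.22, while its 1.14 ± 0.29 after x-rays and 0.01 ± 0.17 after neutrons did not pass. Between neutrons and 25%, E2f1 differed by -1.11 ± 0.23 (limma adjusted p = 0.00258) and Cdkn1a by -1.93 ± 0.25 (limma adjusted p = 9.53e-05). Rbl1, a pocket protein that represses E2F targets, was downregulated at 5 and 15%, and Cdk4, a cyclin-dependent kinase of G1, at 15%. Without the fold filter a brighter probe stood for Cdk4 and gave 0.19 at 15%, so that its probes disagreed in direction. E2f1 turned to -0.074 at 5% with normexp.

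Of 31 further replisome genes, 19 were tested, with 3, 3, 3, 3, and 2 upregulated and 3, 7, 8, 6, and 5 downregulated, the former near or below the share over all genes. Top1, which relieves the twist ahead of the fork, was upregulated in all 5 exposures, from 1.27 ± 0.15 after neutrons to 2.49 ± 0.29 at 15%, though with normexp background correction the neutron value turned to -0.32. Pole3, a histone-fold subunit of DNA polymerase epsilon, was upregulated by x-rays and the mixed fields, from 1.88 ± 0.30 to 2.70 ± 0.21, and was 0.35 ± 0.14 after neutrons, which did not pass. It was 2.36 lower on the log2 scale after neutrons than at 25% (SE 0.22, limma adjusted p = 8.24e-06). Rfc1, the large subunit of the clamp loader, was downregulated in all 5, from -1.68 ± 0.18 after neutrons to -2.12 ± 0.28 at 15%, and Timeless, a fork protection factor, in the 4 exposures other than x-rays, from -1.20 ± 0.27 at 25% to -1.78 ± 0.24 at 15%. Its x-ray value of -1.38 ± 0.37 missed the threshold (limma adjusted p = 0.00514), and neutrons and x-rays differed by -0.22 ± 0.39 (limma adjusted p = 0.684).

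Of 30 further nucleotide synthesis genes, 23 were tested, with 3, 2, 1, 1, and 2 upregulated and 6, 3, 3, 3, and 8 downregulated, the former below the share over all genes. Prps1, which makes the sugar phosphate for nucleotides, was upregulated in all 5 exposures, from 1.31 ± 0.18 after x-rays to 2.29 ± 0.30 at 15%, and with normexp its neutron value turned to -0.042. Pfas, an enzyme of purine synthesis, was upregulated after x-rays and neutrons, at 1.36 ± 0.21 and 0.90 ± 0.15, the latter turning to -0.18 with normexp. Tk2 and Dguok, the mitochondrial deoxynucleoside kinases, were downregulated in all 5, from -1.0 to -1.44 and from -1.05 to -1.27.

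Of 10 proliferation markers, 7 were tested, and 4, 6, 7, 7, and 4 of them were upregulated and 0 downregulated. Mki67, the antigen of cycling cells, rose by 3.64 ± 0.29 after x-rays, 4.00 ± 0.34, 4.27 ± 0.28, and 4.16 ± 0.26 with the mixed fields, and 1.85 ± 0.16 after neutrons, the last falling to 0.14 with normexp, which did not pass. Ccna2, the cyclin of S phase and G2, rose by 2.58 ± 0.13 to 3.17 ± 0.28. Plk1, a mitotic kinase, and Stmn1, which destabilizes microtubules, passed in fewer exposures, Plk1 in the 3 mixed fields and Stmn1 at 15 and 25%. Mki67 was 2.31 lower on the log2 scale after neutrons than at 25% (SE 0.25, limma adjusted p = 2.41e-05).

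Markers of blood cell types moved with the exposures beside these genes to differing degrees. Of 6 NK cell markers none was called in any exposure, and of 8 T cell markers 3, 3, 3, 2, and 0 were downregulated. Of 5 stem and progenitor cell markers tested, 0, 0, 0, 1, and 2 were upregulated and 1, 0, 0, 0, and 0 downregulated. Upregulated were 0, 0, 0, 0, and 2 of 5 monocyte markers tested and 0, 0, 1, 2, and 1 of 6 platelet markers. Of 8 neutrophil markers tested, 3 were upregulated in every exposure and 0, 0, 1, 1, and 1 downregulated. Of 3 plasma cell markers tested, 0, 1, 1, 1, and 0 were upregulated. Platelet markers had a median summed level of 9700 times the array median in the controls and 12920, 17850, 27780, 19220, and 14620 after exposure. For NK cell markers it was 1130 in the controls and 1215, 1137, 2503, 2026, and 1817 after exposure. Of 8 B cell markers, 6 were tested and 6, 6, 6, 6, and 5 were downregulated, and their summed level had a median of 3455 times the array median in the controls (2432 to 4452) against 106, 205, 127, and 142 after x-rays and the mixed fields, and 1246 after neutrons (1049 to 1489). Of 10 red cell and reticulocyte markers, 8, 9, 9, 8, and 10 were upregulated in the order of exposures, with a median sum of 23830 in the controls (21450 to 28510), 54390 after x-rays (34300 to 84500), and 64000 after neutrons (50080 to 81870). In the mixed fields it was 51800 (20220 to 68390), 53560 (26250 to 97020), and 33680 (23330 to 76270), which overlapped the controls. All 10 were well above background on every array. Markers of neutrophil precursor granules had a median sum of 38.1 in the controls (30.0 to 49.5) against 100.3, 99.5, 731, 120.0, and 142, and the 5% mice (27.8 to 553) spanned the controls. Of 5 such markers 2 were tested, with 1, 0, 1, 1, and 1 upregulated. Mpo, Prtn3, and Ms4a3 were not well above background on any control or neutron array. The same held for Ms4a3 after x-rays and at 5 and 15%, and for Mpo at 5 and 25%. Between neutrons and the 25% mixed field, all 6 B cell markers tested were higher after neutrons, with a median difference of 2.73. The part of these cell types in the members' results was not tested.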

How the data were processed

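Whole blood RNA of 36 mice was hybridized to 1-colour Agilent mouse arrays. The authors scanned them with an Agilent scanner and analyzed the images with Agilent Feature Extraction 12.0.2. This software gave the deposited intensity of each spot, already background-subtracted. A table of log2 expression values that the authors deposited was used as an alternative only. Here, log2 intensities were averaged over spots of a probe, leaving out non-uniform ones, and centred on the array median. Of 39429 probes, 12246 were well above background on more than 75% of arrays and at least 1.5-fold from their median on at least 20%. The brightest probe stood for each of 10586 genes. The 12 arrays of a comparison were fitted with limma 3.58.1 in R 4.3.3, with calls at p below 0.001 and adjusted p below 0.05. In simulated data, deviations from the group means were shuffled between x-ray and control arrays, and changes of 1 or 2 (log2) were added to 100 genes each. Of these changes 22% and 90% were found, with 0 false calls among the unchanged genes. Far fewer genes changed there than the 36.3% called after x-rays, and shuffling broke any tie between slide or session and group. The 0 therefore does not carry over to the real calls.

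The members and lists were chosen with earlier results of these data known. Genes were named as the highest and lowest mean fold change per role, those called between exposures, those whose probes disagreed, the extremes of each pathway list, and E2f1. Prim1 and Pold2 were given in full after their values were seen. Alternatives covered background correction, scaling, filters, probe choice, blocks for slide, session, and replicate number, a model over 36 arrays, and arrays left out. A filter on the image software's significance flag was chosen after seeing the data. Promoter sequences are RefSeq's (GRCm38.p6), matched by symbol.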

Additional observations from a re-analysis of the deposited data

Results flagged for a closer look

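In 9 of the 156 groups of 6 mice formed by the 26 tested genes, 1 mouse stood apart from the others by more than the critical value of Dixon's test, which chance passes in about 1 of 20 groups. The log2 level of Gmnn was -0.42 in neutron replicate 4 (nearest mouse 1.07), and that of Pole2 was -0.25 in the same mouse (1.17). Mcm5 was 4.72 (4.06) and Chaf1a 2.42 (1.35) in 25% replicate 6, and Pole2 was -0.10 (0.70) in 25% replicate 5. In 5% replicate 3, Pole was 3.19 (2.30) and Lig1 was 8.43 (10.41). Gins2 was 2.79 (0.80) in Control replicate 4, and Uhrf1 was 4.85 (5.85) in x-ray replicate 5.

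Members that differed between exposures were also taken for a closer look, each by the limma test of that difference. The 25% mixed field exceeded x-rays by 1.15 for Dut, and neutrons lay below x-rays for Gins3 (-0.96) and Uhrf1 (-1.66) on the log2 scale. Against the 25% mixed field, neutrons gave -1.29 for Mcm2, -2.39 for Mcm10, -1.10 for Gins1, -1.03 for Rrm2, -1.18 for Tk1, and -1.67 for Uhrf1, and 1.73 for Lig1.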

How the results depend on the processing

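Counts of called members are given in the order of x-rays, 5, 15, and 25% mixed field, and neutrons against controls, where they were 4, 7, 10, 9, and 11. Normexp background correction gave 1, 1, 4, 3, and 5, and 0 for 25% against x-rays, neutrons against x-rays, and neutrons against 25%. The adjusted p alone gave 11, 14, 17, 16, and 19, with 1 for 15% against x-rays, 6 for neutrons against x-rays, and 11 for neutrons against 25%. The 75th percentile, quantile normalization, scaling on probes above background on all arrays, and the deposited table each gave 1 for 15% against x-rays and 0 for 25% against x-rays. Neutrons against 25% gave 4 in the model over 36 arrays and 2 with the slide block, which left 0 at 5% and 15%, while the session block left 0 and 2. A stricter background filter left 17 of 26 members measured. With a replicate block the counts were 4, 7, 9, 8, and 13, with 3 for 25% against x-rays and 4 for neutrons against 25%. Deviations from the group means had a mean correlation of 0.0569 over 90 pairs of arrays with the same number (lowest -0.769). Over 450 other pairs it was -0.0096 (lowest -0.803). Whether arrays of the same number share more than the number cannot be told from these means.

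Leaving out 1 array at a time gave 4 to 6, 6 to 11, 10 to 14, 7 to 9, and 11 to 13, with 11 without 5% replicate 3. Against x-rays it gave 0 at 5%, 0 to 1 at 15% (1 without 15% replicate 3), 0 to 2 at 25% (2 without x-ray replicate 1, 0 without x-ray replicates 2, 3, 4, or 6 or 25% replicates 1, 2, 4, or 6), and 2 to 3 for neutrons. Neutrons against 25% gave 4 to 8, with 4 without neutron replicate 3, 4, or 6. In every such fit, 38 of the 41 calls against controls and 6 of the 10 between exposures remained. Values that turned with normexp were E2f1 at 5% (-0.074) and, after neutrons, Lig1 (-0.20), Top1 (-0.32), Prps1 (-0.042), and Pfas (-0.18). The cause of these turns was not tested. Without the fold filter Cdk4 turned at 15% (0.19), where a brighter probe stood for the gene. Dim probes near background and 6 mice per group limit the precision.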
